A study of Venturia canescens with 6 samples.

Results

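Of 22333 gene models counted in female heads of Venturia canescens, a parasitoid wasp, 104 (0.466%) met the rule given below. It asked for at least 2 times more reads in a sexual than in an asexual population. It set limits on level and could draw on 16500 of the models by number, so 104 is not the count of all such models. Each library was made from a pool of 30 heads of adult females, taken and frozen at emergence. The sexual and the asexual population gave 3 pools each, and neither had an experimental treatment in the labels. The strain, geographic origin and rearing of the populations, and whether the pools came from separate rearings, are not stated in the sources used here, so each population is a single representative of its reproductive mode. The spread between pools may therefore be partly technical.

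The members were chosen on the measured values. A member had a mean of at least 5 CPM (reads scaled to the size of the library) in the sexual libraries, at least 2 times the asexual mean, and every sexual library above every asexual one. Models averaging 1000 CPM or more over the 6 libraries were left out, and so were models with numbers above 2000 and up to 5500, or above 20000. The sexual-asexual difference of the members is thus fixed by the choice. Where calls and adjusted p-values of the fit across all models are given for members, they describe how the values depend on single libraries and methods and are no evidence for the difference. The models carry numbers only, and 0 of them matched the 14011 genes of the RefSeq table of the species (assembly ASM1945775v1). They are called by number, without gene name, function or sequence, and 1 model need not be 1 gene.

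In Venturia canescens, as in other Hymenoptera, males normally develop from unfertilised eggs. Females of asexual lines lay unfertilised eggs that restore diploidy and become daughters, a form of reproduction called thelytoky, so they produce offspring without mating. The adult female lays in moth larvae that live hidden in stored food, which the wasp finds largely by smell. The head holds the brain, the compound eyes, the antennae, the mouthparts, glands and fat tissue. In RNA from whole heads, fewer cells of a type and less RNA per cell cannot be told apart. Since the tissues could not be checked by marker genes, the head label was taken as given.

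Library totals ranged from 9265064 to 13117716 counts, and 1 count corresponded to 0.0762 to 0.108 CPM. All 6 libraries share a sequencing run and lane in their labels. The members held 0.595% ± 0.056 of the counts of a sexual library and 0.230% ± 0.007 of those of an asexual library (mean ± SD, n = 3). Asexual replicate 1 stood apart from its sister libraries in holding reads of several members that the sisters nearly lacked, so that results touched by it are also given without it. Over the 104 members its level had a median of 1.08 times the mean of its sisters, after 1 CPM was added to both, beside 1.01 times over 8973 other models with at least 5 CPM in sexual heads. With asexual replicate 1 and the deepest library, sexual replicate 3, both left out and the rule applied to the other 4 libraries, 109 models qualified, 89 of them among the 104.

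Most members had a ratio between 2 and 3. The ratio of the sexual to the asexual mean was under 3 in 61 members, 3 to 4 in 19, 4 to 8 in 13, 8 to 16 in 6 and above 16 in 5. The median ratio was 2.67, with the middle range from 2.20 to 3.76. Members with a ratio under 3 gave 77.9% of all counts of the 104 in the sexual libraries, and those at 3 to 4 gave 5.40%. Of the 24 members with a ratio of at least 4, those at 4 to 8 gave 8.38%, those at 8 to 16 gave 7.08% and those above 16 gave 1.27%.

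**Figure D1:**
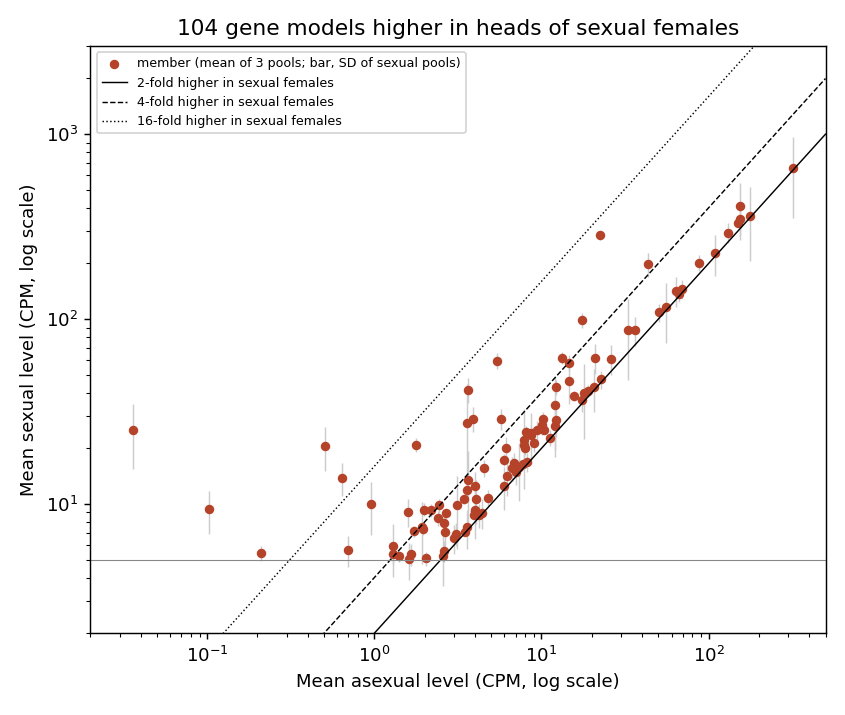
Mean level of each of the 104 members in asexual (x axis) and sexual heads (y axis), in CPM on log scales, with bars for the SD over 3 sexual pools diagonal lines at 2-fold, 4-fold and 16-fold, and a grey line at the minimum of 5 CPM. Members crowd along the 2-fold line at all levels, and 5 lie above the 16-fold line, all with sexual means between 5.41 and 25.1 CPM.

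Levels covered a wide range. The sexual mean was 5 to 10 CPM in 33 members, 10 to 20 CPM in 18, 20 to 50 CPM in 30, 50 to 100 CPM in 8 and above 100 CPM in 15. Model lengths are not known here, so that CPM compares libraries within a model and does not order models by transcript number. The 10 members with most reads held 55.7% of the members' counts in the sexual libraries. Of the 23 members with at least 50 CPM in sexual heads, 5 had a ratio of at least 4, against 11 of the 33 members with under 10 CPM.

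All 104 members passed the low-count filter and all 104 were called higher in sexual females by edgeR's quasi-likelihood test at an adjusted p under 0.05. Over the 11700 models tested, 6.06% were called in that direction, and 15.3% had every sexual library above every asexual one. Because the rule used this contrast, nothing is read from the members' count. It was 101 by DESeq2 (6.5% of all tested models), 101 by limma-voom (6.04%), 79 in an edgeR test against a 1.5-fold change (1.69%) and 100 in edgeR with the replicate number as a block (4.9%).

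The 5 members above 16-fold were nearly missing from asexual replicates 2 and 3. Gene model g19658 had 14.6, 27.2 and 33.4 CPM in sexual replicates 1, 2 and 3 and a single count, in asexual replicate 1, in all asexual libraries. Its sexual level differed more than 2-fold between pools, yet the lowest sexual pool remained 136 times above the highest asexual one. The ratio of counts, scaled to library totals, was 790 with a 95% exact counting interval of 141 to 31236, which covers counting error only. Without asexual replicate 1 the model had 0 asexual counts and was at least 90.1-fold higher in sexual heads, taking 3 counts for each remaining asexual library.

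Gene model g17839 had 15.5, 19.9 and 26.5 CPM in the sexual libraries, in the same order of replicates as g19658. Its asexual level was 1.51 CPM in replicate 1, with 14 counts, and 0 counts in replicates 2 and 3. The ratio of means was therefore 40.9 over all libraries, and at least 74.1-fold without asexual replicate 1. Gene model g18255 had 7.50, 8.40 and 12.1 CPM in the sexual libraries and 2, 0 and 1 counts in the asexual libraries. Its count ratio was 97.9, with a 95% exact counting interval of 33.2 to 477, and 206 (36.6 to 8142) without asexual replicate 1. At 3 counts for each remaining asexual library, as taken for g19658, it was 33.6-fold. In all 3 of these models sexual replicate 1 was lowest and sexual replicate 3 highest.

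Gene model g7605 ran the other way among the sexual pools, with 15.4 and 15.5 CPM in replicates 1 and 2 and 10.7 CPM in replicate 3. It had 17 counts (1.83 CPM) in asexual replicate 1, and a single count in the other asexual libraries together. The ratio of means was 21.5, and the count ratio without asexual replicate 1 was 294 (95% counting interval 52.6 to 11649). At 3 counts for each remaining asexual library, as taken for g19658, it was 49.8-fold. Gene model g16075 was at 5.93, 5.36 and 4.96 CPM in the sexual libraries, the tightest of the 5 in that population with a coefficient of variation (CV, SD over mean) of 9.03%. Its asexual counts were 5 in replicate 1 and 1 in the other libraries, for a ratio of means of 25.6 and a count ratio without asexual replicate 1 of 116 (20.6 to 4610.2). At 3 counts for each remaining asexual library it was 19.5-fold. The count ratios of g18255, g7605 and g16075 without asexual replicate 1 rest on a single asexual count and do not rank them against g19658. Sexual and asexual libraries did not overlap in any of the 5, as the rule demands, and asexual replicate 1 was the highest asexual library in each.

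The next 6 members, with ratios of 8 to 16, had counts in every asexual library, at asexual means of 0.701 to 22.3 CPM. In g16924 this was a single count in asexual replicate 3. Apart from g14278, these 6 members and the others singled out by level or position below were chosen for description after their values were seen. Gene model g14278 combined a high level with a wide difference, with 269, 299 and 285 CPM in sexual and 28.2, 22.6 and 16.3 CPM in asexual libraries, a ratio of 12.7. The sexual pools varied little (CV 5.33%), and 9871 sexual counts stood against 679 asexual ones. Its lowest sexual library was 9.53 times above its highest asexual library.

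Gene model g18456 had 22.3, 21.5 and 18.8 CPM in sexual and 1.51, 1.98 and 1.82 CPM in asexual libraries, a ratio of 11.8. Gene model g12315 had 48.5, 36.5 and 39.6 CPM in sexual and 4.75, 3.12 and 3.09 CPM in asexual libraries, a ratio of 11.4. In both, all asexual libraries were well apart from the sexual ones, with the nearest pair 9.49 and 7.68 times apart. Gene model g8576 had 63.4, 62.1 and 52.8 CPM in sexual libraries. Its asexual level was 9.93 CPM in replicate 1 against 2.74 and 3.55 CPM in replicates 2 and 3, so that the ratio of 11.0 became 18.9 without asexual replicate 1.

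Gene models g14848 and g16924 closed this group at low levels, with ratios of 10.4 and 8.05. The first had 10.1, 6.74 and 13.0 CPM in sexual and 0.648, 1.32 and 0.910 CPM in asexual libraries. The second had 5.28, 6.83 and 4.80 CPM in sexual libraries. In asexual heads it had 0.971 and 1.04 CPM in replicates 1 and 2 and a single count in replicate 3.

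Over the 11 members with a ratio of at least 8, asexual replicate 1 held a median of 9.92% of the sexual mean, and the mean of asexual replicates 2 and 3 held a median of 5.29%. Asexual replicate 1 was the highest asexual library in 8 of these 11 members and in 37 of the 93 with a smaller ratio. The part of this library's reads in the members' ratios was not tested beyond leaving it out. When the rule was applied without it, 105 models qualified, and 30 of them, in place of 24, had a ratio of at least 4. In models where this library was the highest asexual one, leaving it out raises the ratio by construction.

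**Figure D2:**
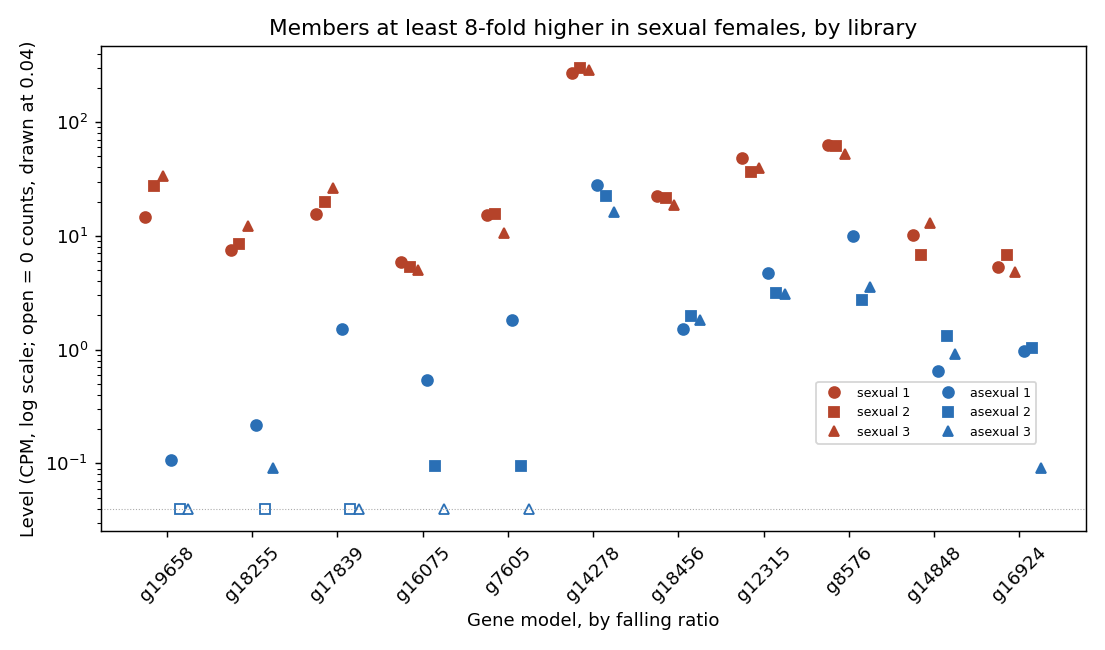
Level in each library (CPM, log scale) of the 11 members at least 8-fold higher in sexual heads, ordered by falling ratio, with sexual libraries in red and asexual libraries in blue. Open symbols, drawn at 0.04, mark libraries with 0 counts. In the 5 models on the left, which include g19658 with 1 asexual count, asexual replicate 1 lies above replicates 2 and 3.

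Of the 13 members with ratios of 4 to 8, 3 reached at least 50 CPM in sexual heads. Gene model g12723 had 109, 94.4 and 92.6 CPM in sexual and 19.8, 14.5 and 18.6 CPM in asexual libraries, a ratio of 5.61. Gene model g17417 had 224, 165 and 207 CPM in sexual and 54.6, 37.0 and 38.9 CPM in asexual libraries, a ratio of 4.57. Gene model g7096 had 59.7, 66.7 and 58.3 CPM in sexual and 14.2, 13.8 and 11.9 CPM in asexual libraries, a ratio of 4.62. In each of them the lowest sexual library was at least 3.02 times the highest asexual one.

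Members of this class with lower levels differed in how steady they were. Gene model g12788 varied little in the asexual libraries, with 3.78, 3.78 and 4.09 CPM (CV 4.69%). These were 35, 40 and 45 counts, where counting error alone gives a larger spread. In the sexual libraries g12788 had 28.2, 33.7 and 24.8 CPM (CV 15.6%), a ratio of 7.44. Gene model g19206 was the most variable member among the sexual pools (CV 61.6%). It had 45.1, 26.0 and 11.4 CPM in sexual replicates 1, 2 and 3 and 7.34, 2.36 and 1.09 CPM in the asexual libraries. Its ratio of 7.64 thus stood beside a nearest pair of libraries only 1.55 times apart. Its log2 fold change in edgeR was 2.97. With 1 library left out it ranged from 2.43 (without sexual replicate 1) to 3.97 (without asexual replicate 1).

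The 19 members with ratios of 3 to 4 had sexual means of 5.03 to 58.0 CPM. The highest was g19399, with 57.1, 64.2 and 52.8 CPM in sexual and 17.8, 13.7 and 12.1 CPM in asexual libraries. The nearest sexual and asexual libraries of these 19 members were 1.40 to 3.14 times apart. Gene model g14147 had the smallest asexual CV of all members, at 3.56, 3.59 and 3.55 CPM, with 10.6, 13.3 and 12.0 CPM in the sexual libraries. Its asexual counts were 33, 38 and 39, where counting error alone gives a larger spread, so the CV does not show a stable level.

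The 6 members with the most counts in sexual heads had ratios under 3. Gene model g14999 had 419, 999 and 548 CPM in sexual and 349, 392 and 217 CPM in asexual libraries (655.5 ± 304.9 against 319.6 ± 91.3, SD, n = 3). The populations were barely apart, the lowest sexual library being 1.07 times the highest asexual one, and sexual replicate 2 set much of the mean. Without sexual replicate 2 its log2 fold change in edgeR was 0.59 in place of 1.04, and the model was no longer called (adjusted p = 0.0842). The call was also lost without sexual replicate 3 (adjusted p = 0.0809) and without asexual replicate 1 (0.0843), 2 (0.0724) or 3 (0.0951) by edgeR, with a filter of at least 5 CPM in 3 libraries (0.0589), by DESeq2 (0.130) and by limma-voom (0.0538).

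Gene model g16863 had 304, 565 and 352 CPM in sexual and 188, 168 and 109 CPM in asexual libraries, a ratio of 2.63. As in g14999, sexual replicate 2 was highest and asexual replicate 3 lowest. Gene model g5928 had 228, 324 and 537 CPM in sexual libraries, with replicate 3 highest, and 140, 198 and 191 CPM in asexual libraries, a ratio of 2.06. Without sexual replicate 3 its log2 fold change was 0.66 in place of 1.04 and it was not called by edgeR (adjusted p = 0.0774). It was also not called without asexual replicate 1 (0.0831) or 2 (0.0644), or by DESeq2 (0.0527).

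Gene model g1134 had 310, 429 and 310 CPM in sexual and 199, 118 and 143 CPM in asexual libraries, a ratio of 2.28. Gene model g10926 had 334, 339 and 313 CPM in sexual and 164, 104 and 182 CPM in asexual libraries, a ratio of 2.19. Its sexual pools were tight and its asexual pools wide, with CVs of 4.13% and 27.1%. Gene model g11491 had 254, 322 and 305 CPM in sexual and 127, 140 and 122 CPM in asexual libraries, a ratio of 2.26, with CVs of 12.0% and 7.10%.

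**Figure D3:**
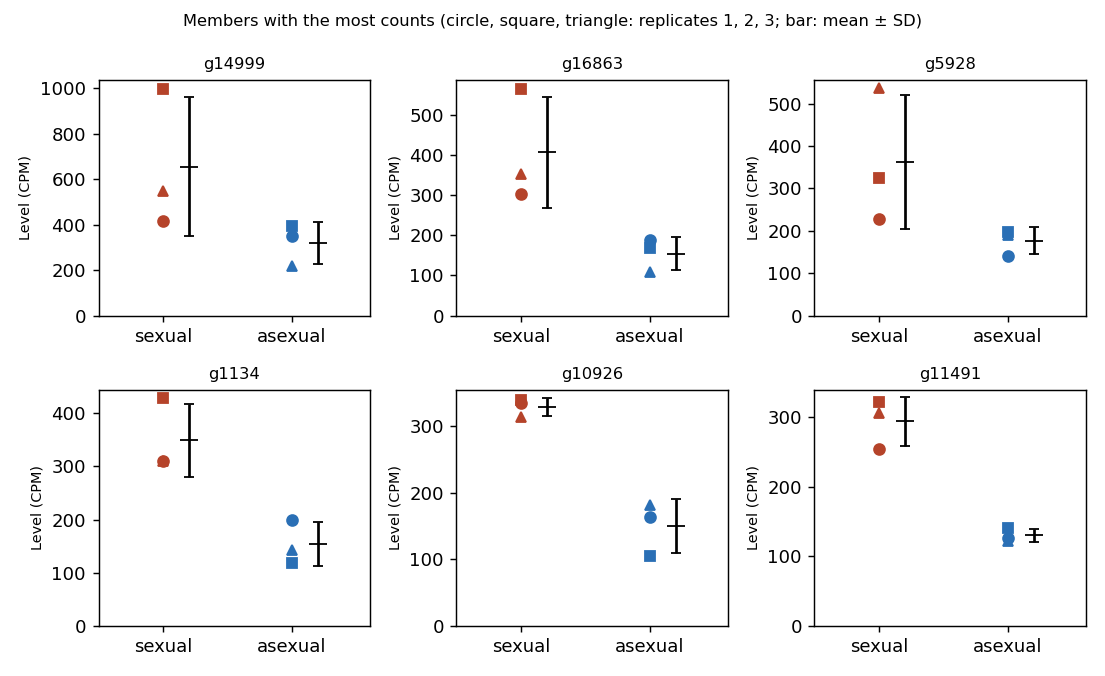
Level (CPM, linear axes from 0) of the 6 members with the most counts in sexual heads, with circles, squares and triangles for replicates 1, 2 and 3 and bars for mean ± SD of 3 pools. The sexual pools of g14999 spread from 419 to 999 CPM, while those of g10926 lie between 313 and 339 CPM.

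At the limit itself, the ratios on either side were alike because the models nearest to 2-fold were taken, while their levels differed. The 3 members with the smallest ratios were g17133, g7265 and g11670. Gene model g17133 had 6.67, 7.11 and 7.39 CPM in sexual and 3.45, 4.06 and 3.00 CPM in asexual libraries, a ratio of 2.01. The ratios of g7265 and g11670 were 2.02 and 2.04, at sexual means of 5.23 and 8.98 CPM. Gene model g7265 was not called by edgeR without sexual replicate 2 (adjusted p = 0.0927) or asexual replicate 1 (0.0965) or 2 (0.147), in edgeR with the replicate block (0.0825), or by limma-voom (0.0560). Just outside lay g14739 (9.98 against 4.99 CPM), g1005 (134.6 against 67.4 CPM) and g12955 (52.1 against 26.2 CPM), with ratios just under 2. A lower limit of 1.5-fold gave 297 models and a higher limit of 3-fold gave 43.

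Overlap between populations removed few models. Only 3 models of the allowed numbers met the level and the ratio but overlapped. Gene model g8731 had 71.4, 47.4 and 38.3 CPM in sexual and 11.7, 25.5 and 41.1 CPM in asexual libraries. The others were g9721 and g15208, with ratios of 2.33 and 2.03. The left-out number ranges held 53 further models that met every other part of the rule.

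The members had a larger median spread between pools of a population than other models of the same level, except at the lowest sexual levels. At sexual means of 50 to 1000 CPM, the median CV over the sexual pools was 15.3% in 23 members and 7.88% in 3554 other models. At 20 to 50 CPM it was 14.4% against 8.66%, at 10 to 20 CPM 13.5% against 11.0%, and at 5 to 10 CPM 13.6% against 13.8%. In the asexual pools, the median CV of models with asexual means of 50 to 1000 CPM was 26.6% in 13 members and 6.87% in 3560 others. At asexual means of 20 to 50 CPM it was 22.2% in 8 members against 7.81%, and at 5 to 10 CPM 16.0% in 20 members against 13.7%. The rule used the same libraries, so these spreads are a description and were not tested.

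**Figure D4:**
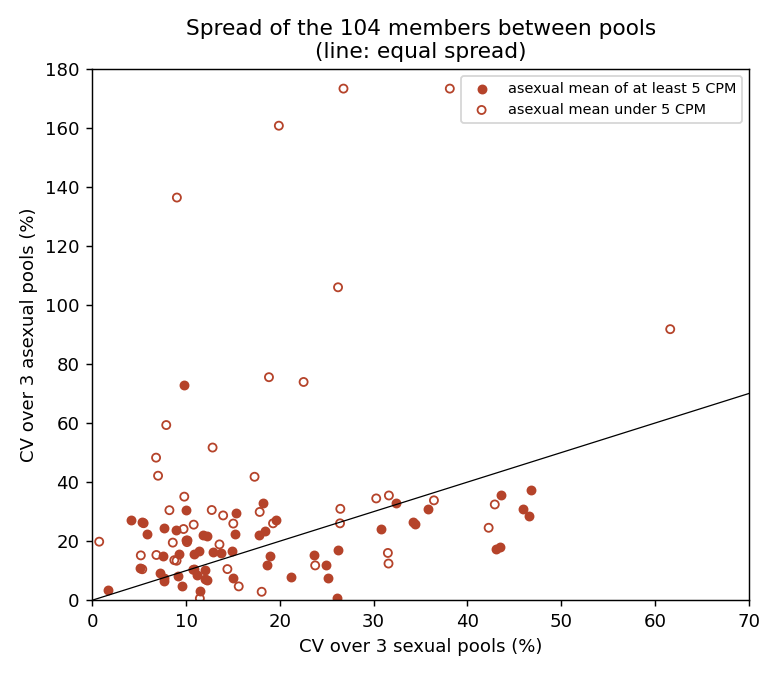
CV over the 3 asexual pools (y axis, %) against CV over the 3 sexual pools (x axis, %) for each of the 104 members, with filled symbols for asexual means of at least 5 CPM and a line at equal spread. Of the 57 filled symbols 29 lie above the line, and the highest points, up to 173%, are open symbols with few asexual counts.

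The spread differed widely among members. In 32 members the CV over sexual pools was under 10%, and in 20 it was above 30%. Gene model g16725 had the smallest CV, with 8.80, 8.68 and 8.69 CPM in sexual libraries beside 3.45, 3.50 and 4.82 CPM in asexual ones. Gene models g14995 and g10926 followed. The sexual counts were 95, 94 and 114 in g16725 and 176, 182 and 215 in g14995. Counting error alone gives a larger spread at such counts, so these 2 CVs do not show stable levels. Of the 20 members with a CV above 30%, sexual replicate 1 was highest in 5, replicate 2 in 8 and replicate 3 in 7, so that no single sexual pool set the spread of all of them. Over all 104 members the highest sexual pool was replicate 1 in 35, replicate 2 in 43 and replicate 3 in 26. The highest asexual pool was replicate 1 in 45, replicate 2 in 29 and replicate 3 in 30.

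The place of the members in the table was not used by the rule, apart from the left-out number ranges. Model numbers do not follow the order of the table, as g442 was in row 18699 and g6957 in row 304. In groups of up to 2500 consecutive numbers, members made up 0.638% to 1.47% of the tested models with at least 5 CPM in sexual heads. This describes the numbers and not the rows. Members occurred in each such group that the rule allowed. Whether the order of the table follows the genome is not stated in the sources used here. There were 3 pairs of members in adjacent rows and 9 pairs within 5 rows, which together took in 15 members.

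A group of rows around g12924 held 3 members within 5 rows. Gene model g12922 had 59.6, 28.9 and 30.6 CPM in sexual and 10.7, 20.8 and 22.6 CPM in asexual libraries, a ratio of 2.20. Gene model g12924 had 170.9, 137 and 119.8 CPM in sexual and 41.7, 83.8 and 67.0 CPM in asexual libraries, a ratio of 2.22. Gene model g12926 had 31.2, 31.8 and 16.6 CPM in sexual and 8.63, 16.4 and 11.2 CPM in asexual libraries, a ratio of 2.19. In all 3 of these models asexual replicate 1 was the lowest of the 6 libraries. Without it, the ratio of each of the 3 fell below the 2-fold limit.

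The next row, g12927, met every part of the rule except the limit of 1000 CPM, and it was the only model left out by that limit. It had 4489, 3943 and 2853 CPM in sexual and 1159, 2101 and 2267 CPM in asexual libraries, a ratio of 2.04. Again asexual replicate 1 was lowest, and without it the ratio of g12927 also fell below the 2-fold limit. Between the members, g12925 had 194, 199.9 and 152 CPM in sexual and 94.9, 149.8 and 148 CPM in asexual libraries, a ratio of 1.39, with the same library lowest. The remaining row, g12923, had 51 sexual and 18 asexual counts and did not pass the filter. Whether these models share reads or belong to 1 gene was not tested, since the read counter and its treatment of overlaps are not given.

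**Figure D5:**
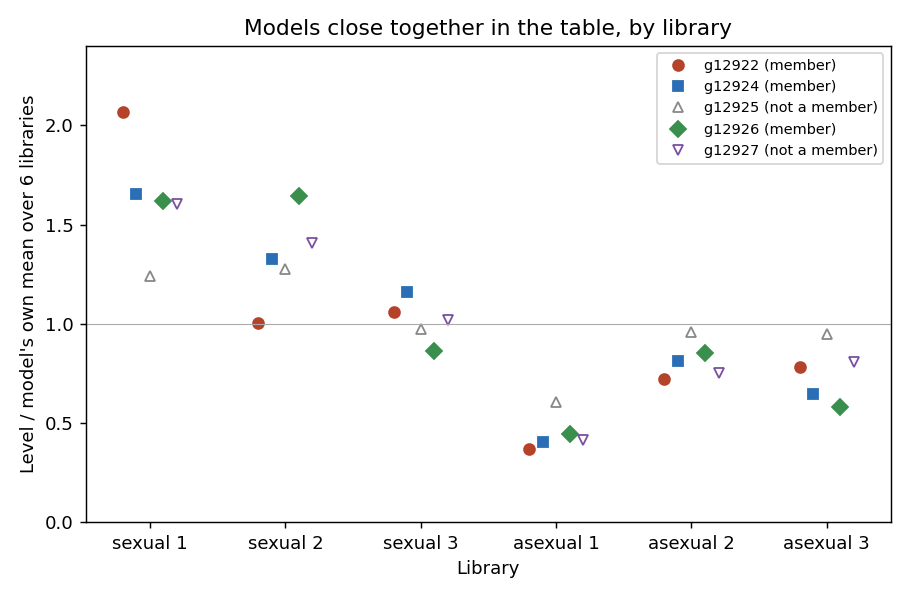
Level in each library divided by the model's own mean over the 6 libraries, for members g12922, g12924 and g12926 (filled symbols) and the neighbouring rows g12925 and g12927, which are not members (open symbols). Asexual replicate 1 is the lowest library of all 5 models.

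Adjacent members g1457 and g1458 also moved alike. The first had 90.7, 93.5 and 164 CPM in sexual and 42.6, 49.7 and 75.3 CPM in asexual libraries. The second had 54.7, 74.7 and 133.7 CPM in sexual and 21.8, 30.4 and 45.9 CPM in asexual libraries. In both, replicate 3 was highest in each population, and the lowest sexual library was 1.20 and 1.19 times the highest asexual one. Without sexual replicate 3 their log2 fold changes were 0.72 and 0.98, in place of 1.04 and 1.41, and neither was called by edgeR (adjusted p = 0.0788 and 0.0618). Neither was called without asexual replicate 1 (0.0667 and 0.0502) or 2 (0.0895 and 0.0704).

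The other adjacent pairs showed less in common. Gene model g10356 had 122.6, 102 and 100.9 CPM in sexual and 54.7, 46.2 and 50.2 CPM in asexual libraries. Its neighbour g10357 had 7.13, 7.85 and 8.84 CPM in sexual and 3.24, 2.65 and 1.91 CPM in asexual libraries, so that the order of the sexual pools was reversed. Gene models g5549 and g5550 had sexual means of 5.34 and 9.15 CPM and ratios of 3.21 and 2.27. Both were highest in sexual replicate 3, but the highest asexual library was replicate 1 in g5549 and replicate 2 in g5550. Gene models g14995 and g14999, 5 rows apart, had ratios of 2.12 and 2.05 but CVs over sexual pools of 1.64% and 46.5%. Sexual replicate 2 was the highest library of both.

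Rows directly beside a member that were not members themselves numbered 198, and 122 of them were tested. Of these 122, 16 (13.1%) were called higher and 6 (4.92%) lower in sexual females by edgeR, where 6.06% and 6.79% of all tested models were called in these directions. Their median log2 ratio of sexual to asexual was 0.04, against 0.00 over all tested models. These rows exclude members by construction, and no test of the shares was made.

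The same rule with the populations exchanged gave 84 models higher in asexual heads. Their median ratio, asexual over sexual, was 2.58, beside 2.67 for the 104 members, and 22.6% of them had a ratio of at least 4, beside 23.1%. In asexual libraries they held 0.672% ± 0.053 of the counts and in sexual libraries 0.232% ± 0.017 (SD, n = 3). Of these 84 models 5 were under 1 CPM in every library of the lower population, against 3 of the 104 members. These counts share all 6 libraries and their difference was not tested.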

How the data were processed

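Per the labels' protocols, libraries were strand-marking and made from polyadenylated RNA (TruSeq Stranded mRNA). The authors deposited 1 table of raw counts per model, without normalization, and 0 of its columns lacked a sample. Trimmomatic, HISAT2 and DESeq2 appear in the submitters' processing notes. How reads were counted, on which strand and on which annotation and build, is not stated in the sources used here, so overlapping and antisense models are not separated. CPM were computed from the deposited counts on column totals. The members, and all lists and tests here, were chosen with earlier results of these data known. Counts of 11700 models were fitted in edgeR 4.0.16 (R 4.3.3) with TMM, filterByExpr and the quasi-likelihood F test, Benjamini-Hochberg adjusted, and the fit was tested on simulated counts. Alternatives were limma 3.58.1, DESeq2 1.42.0, other scalings, filters and limits, a replicate block and left-out libraries. No 2 libraries of a population looked like 1 library deposited more than once (chi-square per degree of freedom 8.45 to 22.0 between their counts), which does not show that they are biological replicates. Models were named by level (6), ratio (6 largest, 3 smallest, 3 just outside), CV (3 largest, 3 smallest) and adjacent runs.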

Additional observations from a re-analysis of the deposited data

How the results depend on the processing

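Rescaling by TMM or DESeq2 size factors gave 104 and 105 members, all 104 among them. A minimum of 1 CPM gave 211 members, of which 54 were at least 4-fold higher and 67 were under 1 CPM in every asexual library, with 12 adjacent pairs. A minimum of 10 CPM gave 71, 13, 1 and 1 for these counts. A 1.5-fold limit gave 297 members, a median ratio of 1.78, 2.18% of sexual counts and 14 adjacent pairs, and a 3-fold limit gave 43 members, 4.13, 0.132% and 0 pairs, which follows from the limits. Keeping all numbers gave 157 members and allowing overlap 107. Leaving out each library and reapplying the rule gave 105 to 130 members (91 to 98 of them among the 104), 22 to 30 at least 4-fold higher, median ratios of 2.46 (without sexual replicate 2) to 2.82 (without asexual replicate 1), 0.524% (without asexual replicate 1) to 0.691% of sexual counts, and 3 to 7 adjacent pairs. It gave 3 to 5 members under 1 CPM in every asexual library, with 5 without asexual replicate 1 or 2. Without asexual replicate 1 there were 5 adjacent pairs, and without asexual replicate 3 there were 7. Without sexual replicate 3 and asexual replicate 1 together, the median ratio was 2.94, with 5 members under 1 CPM. Of the 104, edgeR called 90 to 102 with a library left out (3.44% to 6.85% of all tested models), 88 with both left out (2.64%), 92 after a low-count filter of 5 CPM in 3 libraries (5.76%) and 90 at an adjusted p under 0.01 (2.88%). With the replicate block it called 100. Same-numbered libraries had correlations of deviations from their population means of -0.266, 0.0332 and 0.0709. Between differently numbered libraries the correlations ran from -0.390 to 0.368. Whether equal numbers mark paired libraries was not tested. The named models kept their direction in all 402 alternative values computed for them, and lost their call in 43. Each was chosen with every sexual library above every asexual one, so the kept direction follows from the choice and is no evidence. Depth limits the ratios of members with few asexual counts, where 3 counts are 0.273 to 0.324 CPM.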
